A study of Homo sapiens with 4 samples.

Results

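The 10 genes described here are known uveal melanoma drivers, the prognostic antigen PRAME and effectors of the Gq pathway, taken by gene name from 58735 genes listed for the uveal melanoma line OMM2.3. They were GNAQ, GNA11, CYSLTR2, PLCB4, RASGRP3, TRIO, ARF6, BAP1, SF3B1 and PRAME. RNA was sequenced in 4 libraries, 1 each for cells given CCCP and DHA together, cells given CCCP, cells given DHA, and control cells. All were grown in medium with 10% fetal bovine serum. OMM2.3 is an established line from a liver metastasis, and lines from this tumour are known to carry an activating GNAQ mutation, which gene-level values do not show. CCCP, or carbonyl cyanide m-chlorophenyl hydrazone, carries protons across the inner mitochondrial membrane and collapses its potential. The full name of DHA is not stated in the labels, and no dose, duration or control treatment is given in the sources used here.

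In uveal melanoma, mutations that lock a Gq class alpha subunit, or its receptor CYSLTR2, in the active state are early events. Active GNAQ or GNA11 switches on phospholipase C beta, which releases diacylglycerol and inositol trisphosphate. Diacylglycerol recruits protein kinase C and the exchange factor RASGRP3, which feed the RAS and ERK cascade, while TRIO carries the signal to small GTPases and YAP. ARF6 moves signalling proteins between membrane and cytoplasm. BAP1 and SF3B1 are later events: BAP1 loss marks tumours prone to metastasis, SF3B1 mutation alters splicing, and PRAME expression marks added risk.

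Levels are in FPKM (fragments per kilobase of exon after scaling for sequencing depth), which allows a rough comparison between genes. The length counts all annotated exons of a gene, 11118 bases for RASGRP3 and 17500 for TRIO. A gene whose transcripts use only part of these exons reads low. Reads recovered from the FPKM summed to 16900411 with the combination, 16942245 with CCCP, 17347602 with DHA and 18937286 in control. With 1 library per group there was no spread between replicates, so comparisons of 2 libraries have no test. Ratios carry 95% exact binomial intervals, which cover counting error only. In such bulk samples, fewer cells of a type and less RNA per cell cannot be told apart. The label was checked against 8 melanocyte lineage markers, among them MITF and PMEL, the only 2 that reached 1 FPKM in any library. SOX10 lay at 0.12 FPKM or less and TYR was listed at 0. The summed level of the 8 was 6.45 FPKM with the combination, 11.9 with CCCP, 8.85 with DHA and 10.6 in control. Epithelial markers summed to 267, 299, 344 and 375 FPKM in the same order, nearly all of it KRT8 and KRT18, while ESRP1 and GRHL2 were listed at 0 and EPCAM stayed at or under 0.0475 FPKM. Fibroblast markers summed to 8.99, 20.3, 18.6 and 32.6 FPKM, with 3 of 8 (FAP, PDGFRB and COL1A1) at 1 FPKM or more. Leukocyte and endothelial markers summed to at most 1.35 and 0.428 FPKM. The part of these markers in the results was not tested.

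Of the 10 genes, 7 were measured, meaning at least 1 FPKM in at least 1 library, and 13678 genes in all met this. RASGRP3 had reads in every library but stayed under 1 FPKM. CYSLTR2 and PRAME were listed at 0 in all 4 libraries. The order was the same in all 4 libraries: PLCB4, SF3B1, ARF6, TRIO, GNAQ, BAP1, GNA11 and RASGRP3, and the ranges of neighbours in that order did not overlap.

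**Figure D1:**
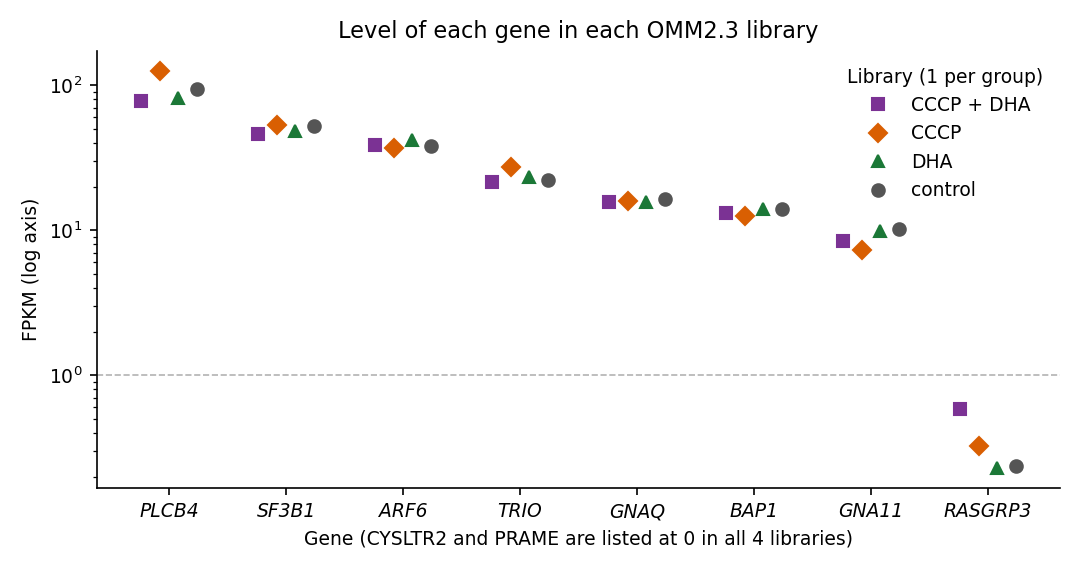
FPKM (log axis) of the 8 genes with reads, as 1 point per library; the dashed line is 1 FPKM. PLCB4 lies between 78.0 and 126 FPKM and RASGRP3 between 0.230 and 0.589 FPKM, and the order of the genes is the same in each library.

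The genes also differed in the sequence around their starts. RefSeq promoter windows (GRCh38.p14, 250 bases before to 50 after a start) were matched by symbol for 7 of the 10 genes. GNAQ, BAP1 and PLCB4 were not matched. 4 windows are shown for a member well above 1 FPKM and for the 3 members below it, with each CG dinucleotide in capitals (CG reads the same on both strands). Where a gene has several windows, the outermost is given. GNA11 is at chr19:3094112-3094411 (plus strand), RASGRP3 at chr2:33436098-33436397 (plus), CYSLTR2 at chr13:48653679-48653978 (plus) and PRAME at chr22:22559216-22559515 (minus).
GNA11: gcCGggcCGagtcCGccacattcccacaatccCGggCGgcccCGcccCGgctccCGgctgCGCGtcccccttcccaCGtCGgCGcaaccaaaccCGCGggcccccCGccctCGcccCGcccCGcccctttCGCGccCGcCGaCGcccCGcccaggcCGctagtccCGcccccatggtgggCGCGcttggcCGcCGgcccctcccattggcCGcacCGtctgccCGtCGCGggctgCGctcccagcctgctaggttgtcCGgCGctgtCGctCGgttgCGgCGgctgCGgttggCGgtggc
RASGRP3: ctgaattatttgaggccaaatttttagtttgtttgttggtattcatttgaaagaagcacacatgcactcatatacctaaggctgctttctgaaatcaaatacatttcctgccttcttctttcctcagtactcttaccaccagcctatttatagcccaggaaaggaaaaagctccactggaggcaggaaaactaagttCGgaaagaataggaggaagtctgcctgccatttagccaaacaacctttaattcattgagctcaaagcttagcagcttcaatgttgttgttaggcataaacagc
CYSLTR2: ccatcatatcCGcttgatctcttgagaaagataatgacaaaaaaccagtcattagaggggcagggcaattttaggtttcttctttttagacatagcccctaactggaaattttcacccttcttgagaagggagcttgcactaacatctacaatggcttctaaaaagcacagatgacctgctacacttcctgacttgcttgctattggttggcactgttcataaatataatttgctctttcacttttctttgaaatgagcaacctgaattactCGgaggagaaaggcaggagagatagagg
PRAME: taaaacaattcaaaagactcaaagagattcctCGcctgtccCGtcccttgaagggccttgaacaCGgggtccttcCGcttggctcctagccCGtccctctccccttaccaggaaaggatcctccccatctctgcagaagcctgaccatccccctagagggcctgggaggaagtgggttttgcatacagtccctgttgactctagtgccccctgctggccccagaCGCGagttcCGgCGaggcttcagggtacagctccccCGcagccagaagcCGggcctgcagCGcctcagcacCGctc

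GNA11 had 45 CG dinucleotides in its window, a number reached by 3.48% of 35116 promoter windows, whose median was 14. The windows of the measured genes ARF6, TRIO and SF3B1 held 37, 28 and 24 to 28. Those of the 3 genes below 1 FPKM held fewer: 2 for CYSLTR2, 1 to 9 over 4 windows for RASGRP3 and 4 to 13 over 3 windows for PRAME. At least 2 CG were present in 89.0% of all windows. This is a description of 7 genes, and methylation was not measured.

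The alpha subunits came first in the pathway. GNAQ (ENSG00000156052, chromosome 9, 77716087 to 78031458, minus strand, GRCh38) had 15.8 FPKM with the combination, 15.9 with CCCP, 15.6 with DHA and 16.5 in control. Its highest level was 1.06 times its lowest, the narrowest range of the 8 genes with reads. The ratio to control was 0.958 (0.899 to 1.02) with the combination, 0.968 (0.908 to 1.03) with CCCP and 0.947 (0.888 to 1.01) with DHA, so each counting interval included 1 on the deposited scale. At equal totals its log2 ratio to control moved to -0.15 with CCCP, in place of -0.05, and to -0.17 with DHA, in place of -0.08. The pseudogene GNAQP1, which resembles GNAQ, was listed at 0 in each library.

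GNA11 (ENSG00000088256, chromosome 19, 3094410 to 3124004, plus strand), the close paralog of GNAQ, had 8.37 FPKM with the combination, 7.31 with CCCP, 9.88 with DHA and 10.3 in control. Both libraries with CCCP thus lay below both without it. The ratio to control was 0.711 (0.649 to 0.778) with CCCP, 0.961 (0.885 to 1.04) with DHA and 0.814 (0.747 to 0.888) with the combination. Against DHA alone the combination was at 0.847 (0.774 to 0.927), and against CCCP alone at 1.15 (1.04 to 1.26). Of its exon bases, 14.8% are shared with the antisense genes AC005262.2 and KF456478.1, both listed at 0. Such a library kit does not mark strand, so reads from a gene and its antisense partner cannot be told apart. EEF1G, a translation factor that every cell uses, shares 99.9% of its exon bases with another gene and was also listed at 0, so a level at 0 can be a failed estimate and a gene with shared bases can be understated.

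GNAQ was 1.88 times GNA11 with the combination, 2.18 times with CCCP, 1.58 times with DHA and 1.60 times in control. The other Gq class subunits were near 0. GNA14 did not exceed 0.128 FPKM and GNA15 did not exceed 0.0393 FPKM in any library, so GNAQ and GNA11 made up nearly all of the class. GNAQ alone held 61.2 to 68.5% of its summed FPKM.

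CYSLTR2, the leukotriene receptor that can carry a driver mutation (ENSG00000152207, chromosome 13, 48653711 to 48711226, plus strand), was listed at 0 with the combination, with CCCP, with DHA and in control. By its exon length, 3 reads would have been 0.0324, 0.0334, 0.0324 and 0.0287 FPKM in that order. None of its exon bases are shared with another gene. CYSLTR1, its paralog, was listed at 0 as well. Of 26 receptors known to couple to Gq, these 2 included, 11 were measured and 7 were listed at 0 in all libraries. F2R, the thrombin receptor, had 56.3 FPKM with the combination, 73.9 with CCCP, 92.6 with DHA and 102 in control, and OXTR, the oxytocin receptor, had 37.1, 94.3, 41.7 and 36.2 FPKM in the same order. F2R was thus lower in each treated library, and OXTR stood out with CCCP alone, 2.60-fold (2.50 to 2.71) above control.

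PLCB4, a phospholipase C beta that Gq switches on and that can itself carry a driver mutation (ENSG00000101333, chromosome 20, 9068763 to 9481242, plus strand), was the most abundant member. It had 78.0 FPKM with the combination, 126 with CCCP, 82.2 with DHA and 93.7 in control. Its control level exceeded that of 97.1% of measured protein-coding genes. CCCP alone was the high library and both libraries with DHA were the low ones. The ratio to control was 1.35 (1.32 to 1.38) with CCCP, 0.877 (0.854 to 0.901) with DHA and 0.833 (0.811 to 0.856) with the combination. With the combination it was 1.62-fold (1.58 to 1.66) lower than with CCCP alone, and at 0.95 (0.923 to 0.977) of the level with DHA alone.

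PLCB4 held 91.5% of the summed FPKM of the 4 phospholipase C beta genes with the combination, 93.2% with CCCP, 87.4% with DHA and 88.7% in control. PLCB3 had 7.03, 8.95, 11.6 and 11.7 FPKM in the same order. It was at 0.764 (0.696 to 0.839) of control with CCCP, where PLCB4 was above control. PLCB1 and PLCB2 stayed at or under 0.0267 and 0.276 FPKM.

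RASGRP3, the diacylglycerol-activated exchange factor for RAS (ENSG00000152689, chromosome 2, 33436324 to 33564750, plus strand), was scarce. It had 0.589 FPKM with the combination, 0.323 with CCCP, 0.230 with DHA and 0.236 in control, from 113, 60, 44 and 51 reads. The combination was the high library, 2.50-fold (1.78 to 3.55) above control, 1.82-fold (1.32 to 2.54) above CCCP and 2.56-fold (1.79 to 3.72) above DHA, as ratios of FPKM. CCCP alone was at 1.37 (0.928 to 2.03) of control. On the log2(FPKM + 0.5) scale used for calls, the combination differed from control by 0.57, under the 2-fold mark, and the gene was outside the measured set. Its paralog RASGRP1 had 0.380 FPKM with the combination, 0.363 with CCCP, 0.267 with DHA and 0.472 in control. RASGRP2 and RASGRP4 did not exceed 0.0277 FPKM. No gene of this family thus reached 1 FPKM.

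**Figure D2:**
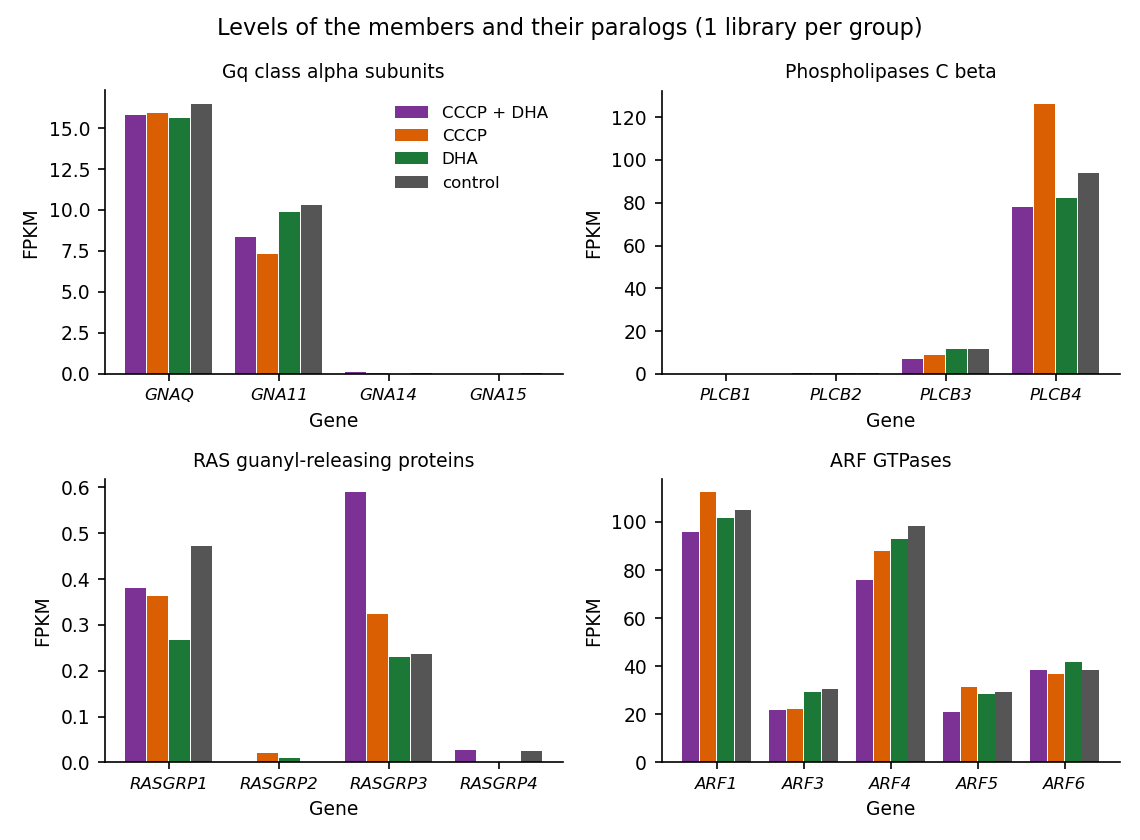
FPKM of the paralogs in the families of GNAQ and GNA11, PLCB4, RASGRP3 and ARF6, as 1 bar per library from 0, each panel with its own axis. PLCB4 holds 87.4 to 93.2% of its family's sum, and no RAS guanyl-releasing protein gene reaches 1 FPKM.

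TRIO, an exchange factor for small GTPases that acts downstream of Gq (ENSG00000038382, chromosome 5, 14143702 to 14532128, plus strand), had 21.5 FPKM with the combination, 27.3 with CCCP, 23.1 with DHA and 22.3 in control. As for PLCB4, CCCP alone was the high library, at 1.23 (1.19 to 1.27) of control. The combination was at 0.966 (0.934 to 0.999) of control and 1.27-fold (1.23 to 1.31) lower than CCCP alone. With DHA the ratio was 1.04 (1.01 to 1.07) as deposited, and its log2 value of 0.05 turned to -0.04 when the libraries were scaled to equal totals. KALRN, its paralog, had 1.31 FPKM with the combination, 1.72 with CCCP, 1.70 with DHA and 2.13 in control. TRIO was 10.5 to 16.4 times KALRN.

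ARF6, a small GTPase of membrane traffic (ENSG00000165527, chromosome 14, 49893092 to 49897054, plus strand), had 38.5 FPKM with the combination, 36.9 with CCCP, 41.8 with DHA and 38.4 in control. On the deposited scale only DHA alone had an interval against control that excluded 1, at 1.09 (1.03 to 1.15) of control, against 0.962 (0.910 to 1.02) with CCCP and 1.00 (0.95 to 1.06) with the combination, whose log2 value of 0.00 turned to -0.03 at equal totals. That scaling also brought the log2 ratio with DHA to 0.02, in place of 0.12, and with CCCP to -0.17, in place of -0.06, so which single compound stood apart for ARF6 depended on it. ARF6 held 12.7 to 15.2% of the summed FPKM of the 5 ARF genes, which ARF1 and ARF4 led. ARF1 had 95.9, 112, 102 and 105 FPKM with the combination, CCCP, DHA and in control, and ARF4 had 75.7, 88.0, 92.8 and 98.1 FPKM. With the combination the 4 other ARF genes had log2 ratios to control between -0.46 and -0.13, all below that of ARF6. Of their exon bases, ARF5 shares 26.3% with other genes, ARF3 13.8%, ARF4 11.6% and ARF1 2.41%, while ARF6 shares none.

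BAP1, the tumour suppressor deubiquitinase that acts on histone H2A (ENSG00000163930, chromosome 3, 52401013 to 52410350, minus strand), had 13.1 FPKM with the combination, 12.5 with CCCP, 14.1 with DHA and 13.9 in control. On the deposited scale only CCCP alone had an interval against control that excluded 1, at 0.893 (0.824 to 0.969). The ratio was 0.936 (0.865 to 1.01) with the combination and 1.01 (0.936 to 1.09) with DHA, which turned below 1 at equal totals. Of 10 other genes of its complex, 9 were measured and ASXL3 was listed at 0. KDM1B, a histone demethylase, had 13.9 FPKM with the combination, 14.6 with CCCP, 9.86 with DHA and 8.73 in control, and was at 1.68 (1.54 to 1.82) of control with CCCP.

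SF3B1, the splicing factor that holds the branch site in the U2 particle (ENSG00000115524, chromosome 2, 197389784 to 197435091, minus strand), had 46.2 FPKM with the combination, 53.5 with CCCP, 48.2 with DHA and 52.7 in control. Both libraries with DHA lay below both without it. The ratio to control was 0.877 (0.851 to 0.905) with the combination and 0.916 (0.888 to 0.944) with DHA. With CCCP it was 1.02 (0.986 to 1.046), and turned below 1 at equal totals. SF3B1 stayed at 2.64 to 2.81 times SF3B2, a subunit of the same complex, across the 4 libraries. U2AF1, at 1.13 FPKM or less, has a near-identical copy in the genome, and its level is uncertain.

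PRAME, a cancer-testis antigen (ENSG00000185686, chromosome 22, 22547701 to 22559361, minus strand), was listed at 0 with the combination, with CCCP, with DHA and in control. By its exon length, 3 reads would have been 0.0460, 0.0476, 0.0461 and 0.0408 FPKM in that order. Of its exon bases, 0.503% are shared with another gene. All 16 other cancer-testis antigens looked up, among them MAGEA4, MAGEC2 and SSX1, were listed at 0 in all 4 libraries too. Some of these, such as MAGEA3 and MAGEA6, are near-identical copies whose reads cannot be assigned. CUL2, which together with PRAME can form a ubiquitin ligase, had 13.8 FPKM with the combination, 10.6 with CCCP, 11.7 with DHA and 11.2 in control.

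The comparison of each treated library with control asked how the compounds moved these genes. None of the 7 measured genes was at least 2-fold apart in any of 5 comparisons between libraries. Over all 13678 measured genes, 5.53% were 2-fold apart with CCCP against control, 3.87% with DHA and 9.96% with the combination, 8.4% with the combination against CCCP and 6.9% with the combination against DHA. At 1.5-fold the background was 14.3% with CCCP against control, 8.58% with DHA, 23.8% with the combination, 21.3% with the combination against CCCP and 17% with the combination against DHA. PLCB4, lower with the combination than with CCCP, was the only one of the 7 past 1.5-fold, as were 12.4% of all genes in that direction. These calls are on log2(FPKM + 0.5) and leave out RASGRP3, whose FPKM ratios with the combination were larger. The log2 ratios of the 7 lay between -0.28 and 0.00 with the combination, between -0.47 and 0.43 with CCCP and between -0.19 and 0.12 with DHA. Equal totals moved further single ratios by over 1.5 times. With CCCP the log2 ratio to control became 0.18 for TRIO and -0.26 for BAP1, in place of 0.29 and -0.16. With DHA it became -0.29 for PLCB4, -0.22 for SF3B1 and -0.15 for GNA11, in place of -0.19, -0.13 and -0.05. On the deposited scale the median absolute log2 ratio of the 7 was 0.09 with the combination, 0.16 with CCCP and 0.08 with DHA. Over all measured genes it was 0.30, 0.22 and 0.14. This background is not matched for level, as the 7 all had 7.31 FPKM or more and it includes lower genes. Of 6760 genes averaging 5 FPKM or more, 494 were 2-fold apart from control with the combination, 106 with CCCP and 56 with DHA.

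**Figure D3:**
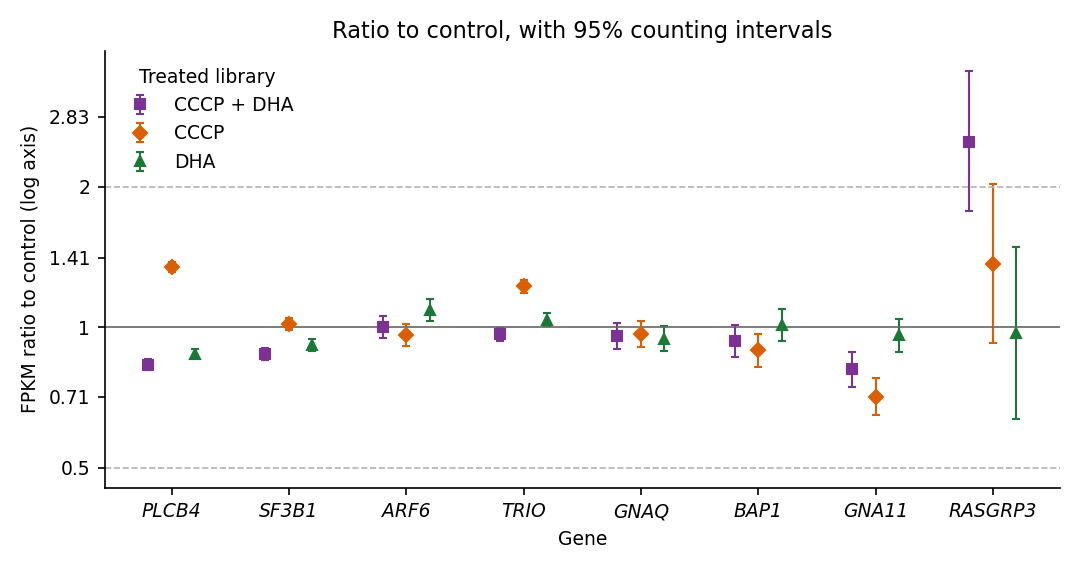
FPKM ratio to control (log axis) of the 8 genes with reads, for CCCP + DHA, CCCP and DHA, with 95% exact binomial intervals (counting error alone); dashed lines are 2-fold. All ratios of the first 7 genes lie between 0.711 and 1.35, and only RASGRP3 with the combination passes 2, at 2.50.

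Since 2 libraries contained CCCP and 2 contained DHA, each compound was tested in an additive limma-trend fit on log2(FPKM + 0.5). Its spread starts from what additivity leaves unexplained, on 1 residual degree of freedom per gene. Limma combined this with the spread of other genes of like level, for 6.11 degrees of freedom in all. The SE and p of a gene thus rest mostly on other genes, not on its own departure from additivity. No member passed a Benjamini-Hochberg adjusted p of 0.05 in either term, where 0.095% of genes were called for CCCP and 0.102% for DHA. The smallest adjusted p for CCCP was that of GNA11 (log2 -0.35, SE 0.14, limma adjusted p = 0.340), lower in both libraries with CCCP. At an unadjusted p under 0.05 the limma fit held GNA11 alone among members for CCCP and none for DHA, beside 14.5% and 12.1% of all genes. For DHA it was that of PLCB4 (log2 -0.44, SE 0.19, limma adjusted p = 0.430), lower in both libraries with DHA. GNAQ had log2 effects of -0.01 for CCCP and -0.05 for DHA with an SE of 0.14. A p that misses the threshold does not show that these genes were alike in all libraries.

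Departure from additivity compares the combination with the level that the 2 single ratios would give when multiplied. PLCB4 would have been at 111 FPKM and was at 78.0, a log2 departure of -0.50 (-0.56 to -0.45). TRIO would have been at 28.4 and was at 21.5 FPKM, a departure of -0.40 (-0.47 to -0.33). Both are genes for which CCCP alone was the high library. GNA11 went the other way, at 8.37 FPKM in place of 7.02, a departure of 0.25 (0.07 to 0.44). RASGRP3 had 0.90 (0.17 to 1.64). For GNAQ, BAP1 and ARF6 the interval included 0, and for SF3B1 it was -0.15 to -0.02, all on the deposited scale. Over all measured genes the median absolute departure on log2(FPKM + 0.5) was 0.26. It was larger than those of 75.1% of genes for PLCB4, 66.0% for TRIO and 46.7% for GNA11. These departures depended on scaling. With the libraries set to equal totals the log2(FPKM + 0.5) departure was -0.32 for PLCB4 in place of -0.50, -0.21 for TRIO in place of -0.39 and 0.41 for GNA11 in place of 0.24, while SF3B1 turned to 0.10 and ARF6 to 0.12. GNAQ moved to 0.24 in place of 0.06 and BAP1 to 0.22 in place of 0.05, above the upper ends of their counting intervals, 0.19 and 0.21. There is no test of these departures.

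**Figure D4:**
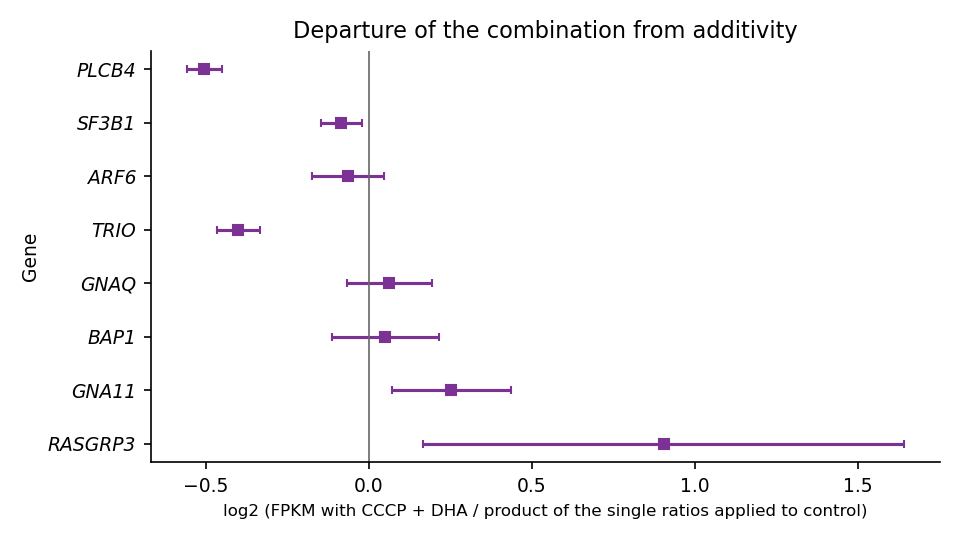
Log2 departure of the combination from the product of the single ratios for the 8 genes with reads, with 95% intervals from read counts (delta method, counting error only). PLCB4 and TRIO lie below 0, at -0.50 and -0.40, and GNA11 and RASGRP3 above it; SF3B1, below 0 here, and ARF6 turn above 0 at equal totals.

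Genes whose pattern was most like that of the 3 measured members with the widest range were sought among 6395 other protein-coding genes, all averaging 5 FPKM or more. Likeness was the Euclidean distance over the 3 log2 ratios to control, from 4 libraries. For PLCB4 they were ARHGAP17, SLC25A23 and SH3BGRL, at distances of 0.07, 0.08 and 0.08, and 4 genes lay within 0.1. For GNA11 they were CMTM3, AKT1S1 and NAA40, each at 0.04, and 29 genes lay within 0.1. For TRIO they were AFDN, MAPK12 and ECI2, each at 0.02, and 41 genes lay within 0.1. ARHGAP17 had 6.66 FPKM with the combination, 11.2 with CCCP, 7.24 with DHA and 7.99 in control, a likeness to PLCB4 that its choice fixed.

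Beyond the members, 178 genes of the surrounding machinery were looked at, of which 128 were measured. With the combination against control 1 was at least 2-fold higher and 4 lower, beside 4.52% higher and 5.44% lower of all measured genes. With CCCP 1 was higher and 1 lower, beside 3.21% and 2.32%, and with DHA 0 were higher and 1 lower, beside 2% and 1.86%. Their median log2 ratio to control was -0.06 with the combination, 0.01 with CCCP and -0.02 with DHA, beside 0.01, 0.00 and 0.00 over all measured genes. None of the 128 passed the adjusted p in either term of the additive fit. Over all measured genes 0.095% did for CCCP and 0.102% for DHA, so a count of 0 is near these shares.

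The kinases and lipid signals downstream of phospholipase C were mostly near control. Of 18 such genes 15 were measured, and their log2 ratios to control had a median of 0.08 with the combination. PRKCE, a protein kinase C that diacylglycerol activates, had 3.50 FPKM with the combination, 0.991 with CCCP, 1.42 with DHA and 0.964 in control, 3.63-fold (3.08 to 4.30) above control with the combination. The combination was the high library for PRKCE, as it was for RASGRP3. PRKCA, an abundant member of that family, had 18.4, 21.2, 18.4 and 17.5 FPKM in the same order. On log2(FPKM + 0.5), none of the 10 RAS, RAF, MEK and ERK genes was 1.5-fold apart from control with any treatment. Over all measured genes 23.8% were on that scale with the combination, 14.3% with CCCP and 8.58% with DHA. That background is not matched for level, and 10 genes are few to set beside it. BRAF, a RAF kinase, had 2.15 FPKM with the combination against 1.43 in control, a log2 ratio of 0.46 on that scale and an FPKM ratio of 1.501 (1.35 to 1.66).

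Among the receptors, P2RY6, a nucleotide receptor, had 0.685 FPKM with the combination, 1.81 with CCCP, 2.28 with DHA and 5.09 in control. It was 7.43-fold (5.48 to 10.3) lower with the combination, 2.82-fold (2.29 to 3.49) lower with CCCP and 2.24-fold (1.85 to 2.71) lower with DHA. The 11 measured receptors had a median log2 ratio to control of -0.60 with the combination, -0.43 with CCCP and -0.37 with DHA. RGS4, which shortens Gq signalling by speeding GTP hydrolysis, had 13.0 FPKM with the combination, 33.2 with CCCP, 26.9 with DHA and 32.6 in control. It was 2.51-fold (2.34 to 2.70) lower than control with the combination. P2RY6 was below control in each treated library, whereas RGS4 with CCCP was at 1.02 (0.967 to 1.07) of it.

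Around TRIO, ARF6, BAP1, SF3B1 and PRAME, only SRSF2 and RARB were at least 2-fold apart from control with the combination on log2(FPKM + 0.5). Over all measured genes this share was 9.96%, a background not matched for level. With the combination against control, the median log2 ratio was -0.07 over 18 measured genes of the TRIO branch, -0.02 over 16 ARF6 regulators, 0.25 over 9 genes of the BAP1 complex, -0.20 over 16 branch site factors and -0.42 over 7 PRAME partners. ACAP2, a GTPase-activating protein for ARF6, had 13.8 FPKM with the combination, 8.56 with CCCP, 7.40 with DHA and 6.88 in control. With the combination the FPKM ratio to control had an interval of 1.88 to 2.14, and the log2(FPKM + 0.5) ratio was 0.95, which did not count as 2-fold. The splicing factor SRSF2 had 37.2 FPKM with the combination, 45.0 with CCCP, 63.1 with DHA and 76.4 in control, 2.06-fold (1.95 to 2.17) lower with the combination. Of its exon bases 36.7% are shared with other genes. In the TRIO branch none of the 18 was 2-fold apart from control with any treatment. Over all measured genes 5.53% were with CCCP alone and 3.87% with DHA alone. WWTR1, the YAP partner TAZ, had a log2 ratio of -0.66 with the combination. RARB, a retinoic acid receptor, in the list of PRAME partners, had 4.37 FPKM with the combination, 9.89 with CCCP, 6.78 with DHA and 9.38 in control, 2.15-fold (1.86 to 2.48) lower with the combination.

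**Figure D5:**
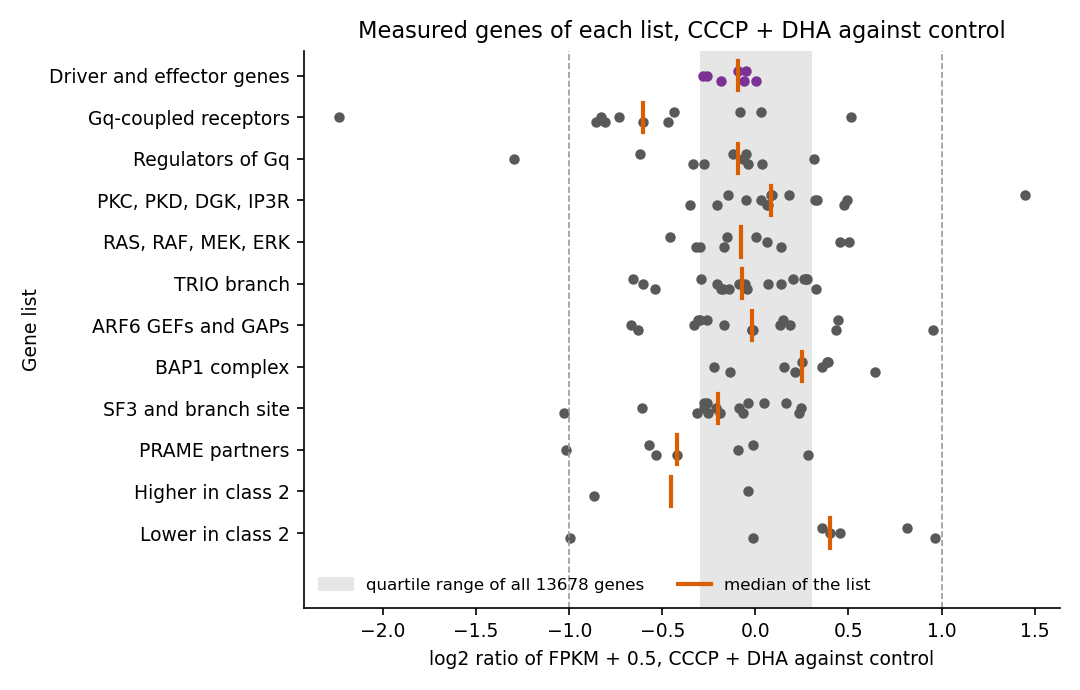
Log2 ratio of FPKM + 0.5, CCCP + DHA against control, for the measured genes of each list (points), with the list's median (orange line), 2-fold marks (dashed) and the quartile range of all 13678 measured genes (grey). The 7 driver and effector genes lie between -0.28 and 0.00, and single genes of other lists lie past 2-fold, P2RY6 at -2.24 and PRKCE at 1.45.

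EIF1AX, a translation initiation gene that is also mutated in uveal melanoma, had 27.5 FPKM with the combination, 19.0 with CCCP, 27.3 with DHA and 25.6 in control. MBD4, a DNA repair gene with known germline and tumour loss, had 16.5, 17.0, 16.8 and 16.1 FPKM in the same order. EIF1AX was thus low with CCCP alone, and MBD4 was within 0.08 on the log2 scale of control in each treated library. A clinical classifier counts genes that are higher or lower in class 2, the tumours prone to metastasis. Of 4 genes higher in class 2, RAB31 and ECM1 were measured, at 9.52 and 8.97 FPKM with the combination and 9.81 and 16.8 FPKM in control, while CDH1 and HTR2B did not exceed 0.183 FPKM in any library. All 7 genes looked up that are lower in class 2 were measured, and their median log2 ratio to control was 0.40 with the combination, 0.43 with CCCP and 0.10 with DHA. EIF1B, a translation initiation gene of that group, had 25.7 FPKM with the combination, 17.1 with CCCP, 16.5 with DHA and 12.9 in control. LMCD1, of the same group, lay the other way, at 0.406, 0.977, 1.17 and 1.31 FPKM in the same order, 3.21-fold (2.43 to 4.31) lower with the combination than in control.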

How the data were processed

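RNA sequencing libraries were made with an Illumina TruSeq RNA kit from 1 ug of total RNA, per the labels' protocols. Each library has deposited FPKM for 58735 genes, named as FPKM in the file headers. No aligner, counting tool or build is given in the sources used here. All identifiers and 58708 names matched GENCODE 29 (GRCh38), which gave gene types, coordinates and exon overlaps. FPKM multiplied by summed exon length gave whole numbers of reads, after division by the library's smallest step, for 100% of values above 0 (tolerance 0.01 reads). These reads served for depth and intervals. Values were used as deposited.

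Ratios were taken on log2(FPKM + 0.5), which understates changes of low genes, over genes that reached 1 FPKM in any library. Folds with intervals are ratios of FPKM without the pseudocount (Clopper-Pearson on the conditional binomial). The additive fit used limma 3.58.1 in R 4.3.3 across all measured genes. It was tried on simulated libraries with a CCCP effect and no departure from additivity. That trial does not cover genes that depart from additivity, as PLCB4 and TRIO did. Python 3.11.15 was used with scipy 1.17.1, pandas 2.3.3, numpy 2.4.6 and, for figures, matplotlib 3.10.9. Alternatives were no filter, a filter at a mean of 5 FPKM, pseudocounts of 0.1 and 1, 2 rescalings, protein-coding genes alone, a 1.5-fold rule, limma without trend and voom on recovered reads.

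The members, gene lists and rules were chosen with earlier results of these data known. Named were all members, their paralogs, up to 4 genes per list that averaged 1 FPKM or more and had the largest absolute log2 ratios, and the 3 most similar genes for each of 3 members. PRKCA, SOX10, EPCAM, CUL2, SF3B2, U2AF1, CDH1, HTR2B, EEF1G, GNAQP1, LMCD1 and genes listed at 0 were named after their values were seen. So were MLANA, TYRP1, S100B and DCT.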

Additional observations from a re-analysis of the deposited data

Results flagged for a closer look

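The effect of CCCP pointed opposite ways without and with DHA for PLCB4, with a log2 ratio of -0.074 for the combination against DHA and 0.43 for CCCP against control. The first of these was -0.0053 at equal totals. For TRIO these values were -0.10 and 0.29, and -0.03 and 0.18 at equal totals. For TRIO the effect of DHA also pointed opposite ways, at -0.34 for the combination against CCCP and 0.054 for DHA against control, where the last value turned to -0.04 at equal totals. On the deposited scale each counting interval excluded no difference. Intervals were not computed at equal totals, and with 1 library per group these differences were not tested. Groups of 1 library allow no search for samples that stand apart.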

How the results depend on the processing

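No paired analysis was possible because each group had 1 library, and fits without 1 library would have no residual degree of freedom. No member passed the adjusted p in any of 10 settings of the additive fit. The lowest adjusted p was 0.0787, for PLCB4 and DHA, whose other values reached 0.738. The sign of each of the 14 member terms was the same in all 10. Settings that change only the filter, the gene set or the trend leave a member's effect as it is, so there the sign could not differ. Of the 2 rescalings, the one by the median ratio between libraries left the members' ratios almost as deposited. With CCCP against control the log2 ratio of PLCB4 was 0.427653 in place of 0.427667, so that setting is hardly a separate check. Single ratios of some members did turn sign at equal totals. The count of members at 2-fold was 0 under each alternative, except 1 (PLCB4) for the combination against CCCP at 1.5-fold. RASGRP3 entered this count only with no filter. There the pseudocount held its log2 ratio to control with the combination to 0.57, while its FPKM ratio was 2.50. No setting joined no filter with a smaller pseudocount. For RASGRP3 the count of 0 thus follows from the filter and the pseudocount, and is no check of its change.

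Counts over all genes moved more. At 2-fold, CCCP against control gave 756 genes, and 1142 with a pseudocount of 0.1, 440 with 1, 1152 with no filter, 106 with a mean of at least 5 FPKM, 134 among protein-coding genes and 1956 at 1.5-fold. DHA gave 529, and 828, 326, 887, 56, 47 and 1174 in the same order. The combination gave 1362 against control, and 494 with a mean of at least 5 FPKM, 644 among protein-coding genes and 3259 at 1.5-fold. It gave 1149 against CCCP, and 317, 481 and 2911 in that order. It gave 944 against DHA, and 252, 319 and 2328 in that order, with 619 at a pseudocount of 1 and 1423 with no filter. At equal totals the share of higher genes among those 2-fold apart was 47.6% in place of 58.1% for CCCP against control. For DHA against control it was 89.3% with a mean of at least 5 FPKM and 83.0% among protein-coding genes, in place of 51.8%. In the additive fit, CCCP had 13 calls, and 21 and 24 with pseudocounts of 0.1 and 1, 0 with no filter, 89 with a mean of at least 5 FPKM, 508 at equal totals, 235 among protein-coding genes, 0 by limma without trend and 742 by voom. DHA had 14 calls, and 0 with no filter, 34 with a mean of at least 5 FPKM, 404 at equal totals, 63 among protein-coding genes, 0 by limma without trend and 669 by voom. Where limma made 0 calls, unadjusted p under 0.05 held 2211 genes for CCCP and 1568 for DHA with no filter, and 1496 and 1126 without trend. The median absolute departure of the measured members was 0.08, and 0.16 with no filter, which adds RASGRP3, and 0.22 at equal totals. The cause was not tested for the other settings. Depth limits RASGRP3, with at most 113 reads in a library, and the lists of genes at 0.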
